A study of Sus scrofa with 6 samples.

Results

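The cytosolic ribosome is built from ribosomal RNA and many ribosomal proteins, encoded by the RPL genes for the large subunit and the RPS genes for the small subunit. Members were taken by symbol: every gene whose single array symbol starts with RPL or RPS and a digit, together with RPSA, RPLP0, RPLP1 and RPLP2, and leaving out the RPS6K kinases and RPS19BP genes, which are not ribosomal proteins. This gave 63 genes, 38 of the large and 25 of the small subunit, among 6765 genes with a symbol of their own on the array. Each gene was read from 1 probe set, the one with the highest mean log2 signal over all 6 arrays. For 39 genes it was the only probe set, and 24 genes had several. Genes present only on probe sets that carry several symbols were not analysed here.

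The study held aortic valve leaflets of adult female pigs under cyclic pressure and asked how raised pressure alters expression. Before loading, the endothelium of the leaflets was stripped with collagenase II and they were kept overnight in serum-containing medium; both groups share these steps. The normotensive group (3 arrays) was cycled between 0 and 80 mmHg and the hypertensive group (3 arrays) between 0 and 120 mmHg, for 24 h at 1 Hz in a bioreactor. The labels number the samples as biological replicates without saying whether they came from different animals, so p-values describe the spread between these samples, which may be partly technical. RNA was amplified in 2 cycles from 70 ng before hybridisation to a porcine oligonucleotide array, on which each probe set gives 1 signal per array. Signals are the authors' MAS5 values on a linear scale, and differences are log2 hypertensive minus normotensive, with the standard error (SE) of the limma fit.

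Ribosomal protein genes are among the most heavily transcribed genes of any growing cell, and their products are assembled in fixed proportions. Their mRNAs start with a pyrimidine-rich 5′ terminal oligopyrimidine (TOP) tract, through which mTORC1 and LARP1 set how well they are translated, so output is often adjusted in translation and not in mRNA amount. Cells make new ribosomes in the nucleolus with the help of a separate set of assembly factors and of RNA polymerase I, which MYC induces. Loose ribosomal proteins, RPL5 and RPL11 above all, can bind MDM2 and thereby stabilise p53.

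Valve interstitial cells, the cell type the labels name, were represented by 6 of 8 markers such as vimentin, decorin and lumican, all above the filter on low signal. All 6 had lower mean signal at hypertensive pressure, with a summed signal of 67018 to 68132 on the normotensive and 47561 to 58765 on the hypertensive arrays. Endothelial markers (10 of 10 measured, with CDH5, VWF, KDR, SELE and CLDN5 below the filter) summed to 2492 to 3062 and 2077 to 4366. They moved in both directions, with 5 of the 10 higher. Above the filter SELP was higher, and PECAM1, TEK, ENG and ERG were lower. The highest sum, on hypertensive replicate 1, included 2296 from SELP alone. Leukocyte and macrophage markers (6 of 10 measured, with CD3E below the filter) summed to 1797 to 3364 and 766 to 2577. They also moved in both directions, with 3 of the 6 higher (CD14, CORO1A and CD3E) and PTPRC, CD163 and AIF1 lower. The brightest, CD163, was at 1497, 2261 and 1294 against 270, 1794 and 875. The 3 muscle markers measured stayed below the filter. What part a shift in cell content had in the values below was not tested. In whole leaflets fewer cells of a type and less RNA per cell cannot be told apart. Hypertensive replicate 2 stood apart from its group: across all 14399 probe sets tested it correlated at 0.95 on average with the normotensive arrays, where hypertensive replicates 1 and 3 reached 0.817 and 0.895. Main results are also given without it. It was singled out by its likeness to the normotensive arrays, so leaving it out widens the gap between the groups, and calls made without it describe the remaining arrays and are no independent test of pressure.

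The signal of the ribosomal protein genes hardly differed between the pressures. Of the 63 genes, 61 lay above the filter on low signal (a mean signal of 48.5), and none of them passed an adjusted p of 0.05 (limma with Benjamini-Hochberg adjustment over all probe sets; adjusted p from 0.302 to 0.997). Among all 5271 genes tested 0 passed as well, so 0% is the background of that count. None of the 61 reached an unadjusted p of 0.05, which 17.0% of all genes tested did. The median log2 difference was 0.04 over the ribosomal protein genes and -0.07 over all genes tested, and 49 of the 61 lay within 0.2 of 0 (80.3%, against 27.4% of all genes). The 95% interval of the difference stayed inside a 2-fold change either way in 56 of the 61 genes (91.8%) and in 35.9% of all genes tested. Their fits were also more precise, with a median SE of 0.18 against 0.33. The genes were far brighter too, with a median signal of 13816 against 556 over all genes tested. The 14 elongation factors and other TOP mRNAs described below had a median signal of 10801. Of these, 78.6% lay within 0.2 of 0, with a median SE of 0.19, so neither trait was particular to the ribosomal protein genes. The part of signal level in these contrasts was not tested.

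**Figure D1:**
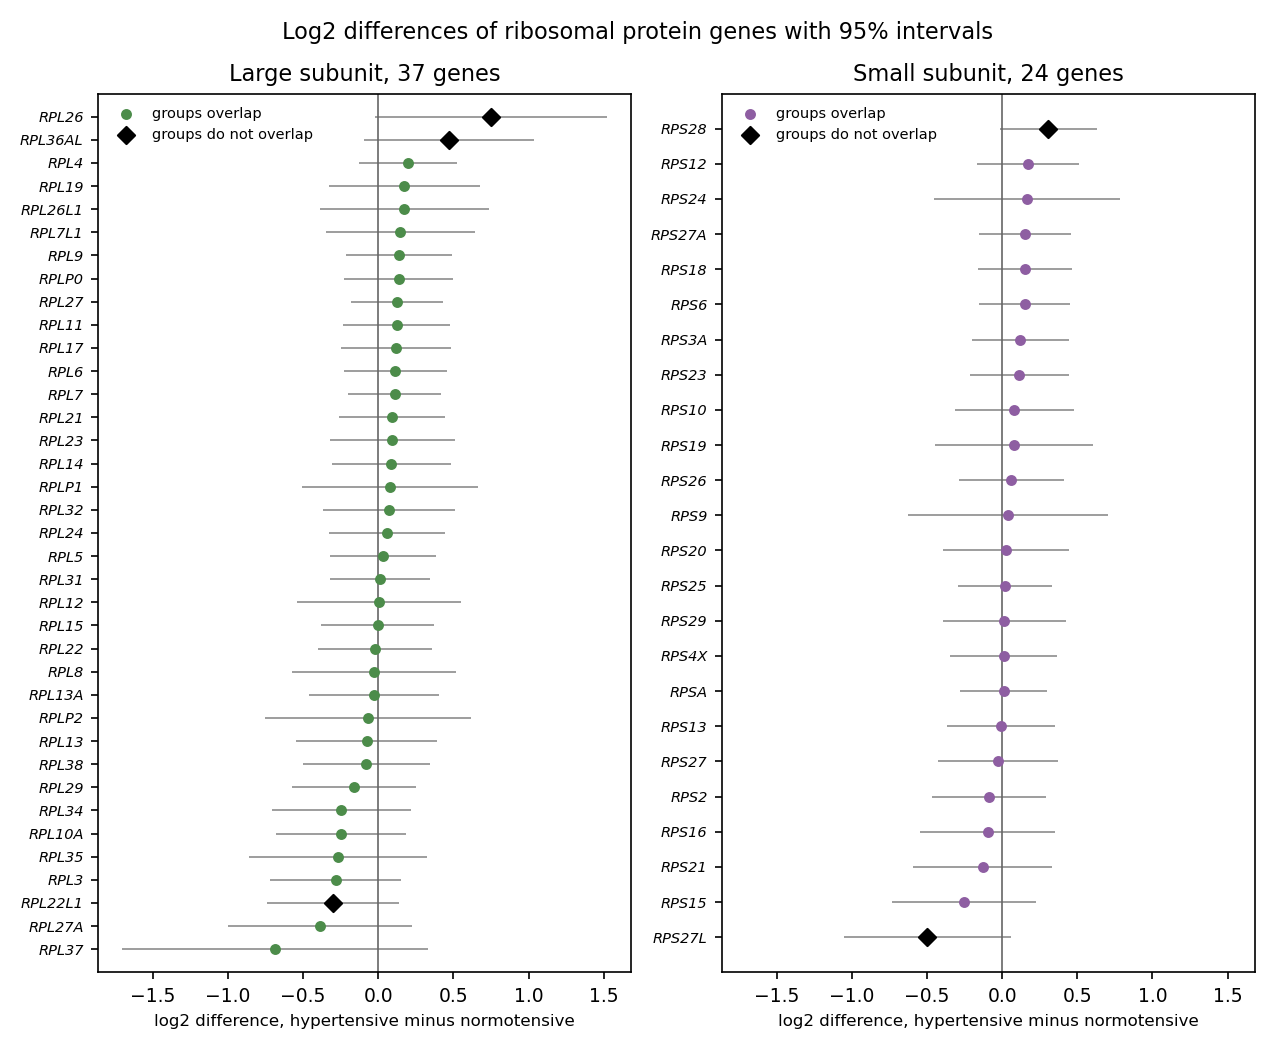
Log2 difference (hypertensive minus normotensive, x axis) of the 61 ribosomal protein genes above the filter, as points with 95% intervals of the limma fit, for the large (left, 37 genes) and small subunit (right, 24 genes). Most points lie within 0.2 of 0, and black diamonds mark the 5 genes whose 3 hypertensive arrays all lie on one side of the 3 normotensive arrays.

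Large and small subunit genes gave nearly the same answer. The 37 large subunit genes had a median log2 difference of 0.06 (22 higher, 15 lower; from -0.69 to 0.75), and the 24 small subunit genes one of 0.03 (17 higher, 7 lower; from -0.50 to 0.31). On each array the median deviation of the large subunit genes from their normotensive means was set against that of the small subunit genes. On normotensive replicates 1, 2 and 3 large minus small came to 0.01, 0.03 and -0.08, and across hypertensive replicates 1, 2 and 3 it came to 0.04, -0.02 and -0.02. The group means were -0.01 ± 0.06 (SD, n = 3) and -0.0013 ± 0.03 (SD, n = 3), so the shift between pressures, 0.0089, was smaller than the spread within either group. Without normotensive replicate 3 it was -0.04. This comparison has no test here, since a score over chosen genes is given as a description.

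What did vary was the array. The median deviation of the 61 genes took the values 0.10, -0.03 and -0.07 in normotensive replicates 1, 2 and 3, while hypertensive replicates 1, 2 and 3 gave 0.13, 0.26 and -0.26. The hypertensive arrays therefore lay on both sides of the normotensive ones, with an SD of 0.27 against 0.09. Hypertensive replicate 2 was the highest of the 6 arrays for 41 of the 61 genes and hypertensive replicate 3 the lowest for 40 of them. Over all genes tested these shares were 17.6% and 18.9%. GAPDH control probe sets at both ends of its mRNA gave a 3′/5′ ratio, higher when RNA is shortened, of 3.02, 2.11 and 7.52 for normotensive and 3.67, 2.91 and 6.04 for hypertensive replicates 1, 2 and 3. In each group the array with the highest GAPDH ratio, replicate 3, had the lowest ribosomal protein median. For actin the ratios were 49.1, 41.1 and 109 against 79.5, 81.7 and 52.5, so hypertensive replicate 3 had the lowest actin ratio of its group. The part of RNA quality in the array shifts was not tested. As genes, GAPDH and ACTB (actin) differed between pressures by 0.11 (SE 0.15) and 0.32 (SE 0.24) on the log2 scale. GAPDH was at 21110, 19708 and 21051 against 23767, 25763 and 18060. It was thus also highest on hypertensive replicate 2 and lowest on hypertensive replicate 3, a pattern not confined to ribosomal protein genes. ACTB differed, at 9464, 13529 and 8996 against 14667, 9669 and 15861, with hypertensive replicate 3 the highest.

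**Figure D2:**
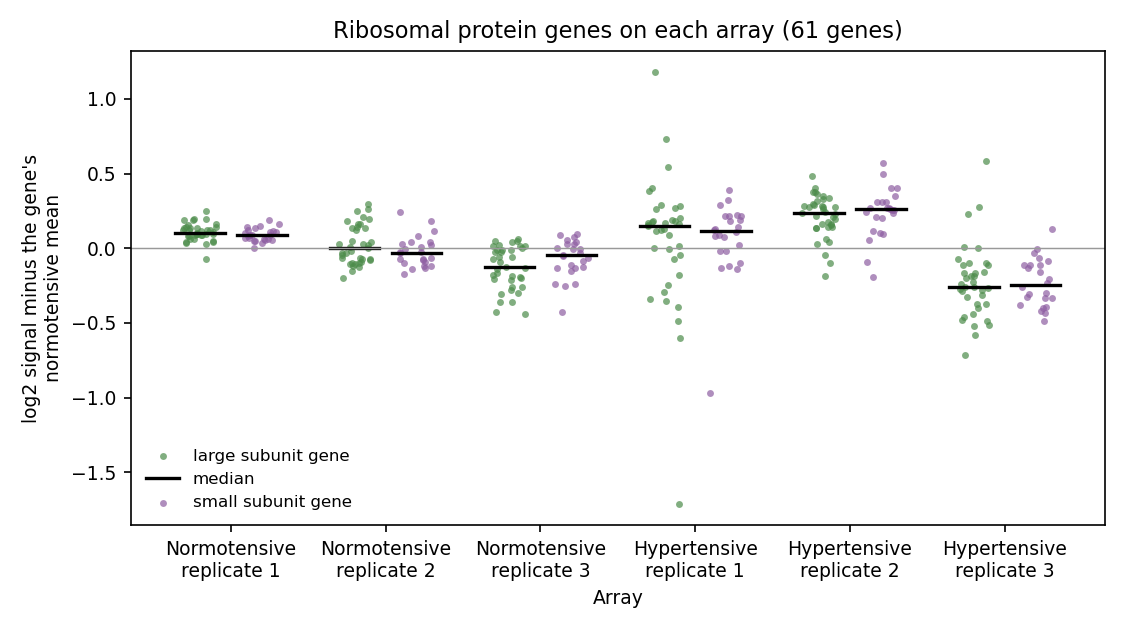
Log2 signal of each ribosomal protein gene minus its own normotensive mean (y axis) on the 6 arrays (x axis), with large subunit genes in green, small subunit genes in purple and black bars at the medians. Both subunits shift alike on the hypertensive arrays: they sit highest on hypertensive replicate 2 (median of all 61 genes 0.26) and lowest on hypertensive replicate 3 (-0.26). They lie further apart on normotensive replicate 3, with medians of -0.13 (large) and -0.05 (small).

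The sign of such small differences depended on the scaling. On the authors' scale 39 of the 61 genes (63.9%) had the higher mean at hypertensive pressure and 22 the lower. Of all genes tested 45.0% were higher on that scale. But 12 of the 61 were higher with quantile normalization and 47 with a shift of each array to one median. The medians were -0.09 for the large and -0.11 for the small subunit with quantile normalization, and 0.14 and 0.11 with the median shift. Without hypertensive replicate 2 they were -0.07 and -0.06, with 22 genes higher. No direction is therefore given for the family as a whole.

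The large subunit holds the centre that joins amino acids, and the large subunit genes named in this paragraph differed little between the pressures. RPL4, which lines the exit tunnel of the growing chain, had signals of 17417, 15198 and 15125 on the normotensive and 19422, 19467 and 15988 on the hypertensive arrays (log2 0.20, SE 0.14; 95% interval -0.13 to 0.52; adjusted p = 0.461 by limma). The arrays of the 2 groups interleave, with hypertensive replicate 3 below normotensive replicate 1. RPL5 and RPL11, which carry the 5S RNA into the subunit and can bind MDM2 when left over, had log2 differences of 0.03 (SE 0.15) and 0.12 (SE 0.16). RPL5 was at 28712, 24901 and 28124 against 26295, 34208 and 23860, so the highest and the lowest array were both hypertensive. RPL13A, which also takes part in silencing of inflammatory mRNAs once released from the ribosome, was at 19790, 19402 and 14669 against 17717, 21083 and 14184 (log2 -0.03, SE 0.19). RPL22, an RNA-binding protein that is dispensable for bulk translation, had a log2 difference of -0.02 (SE 0.17), and RPL38, known for its effect on the translation of Hox mRNAs, one of -0.08 (SE 0.18). RPL6, RPL7, RPL9 and RPL31, structural proteins of the subunit, were at 0.11, 0.11, 0.14 and 0.01. The range over all 6 arrays was 0.30 on the log2 scale for RPL7, among the narrowest 3 of the family.

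The stalk of the large subunit recruits and activates the elongation factor GTPases, and consists of RPLP0 as its base and of RPLP1 and RPLP2. RPLP0 was at 18789, 17226 and 16866 on the normotensive and 21387, 21533 and 15684 on the hypertensive arrays (log2 0.13, SE 0.16). RPLP1 and RPLP2 had log2 differences of 0.08 (SE 0.26) and -0.07 (SE 0.30). In all 3 genes the hypertensive arrays spanned the normotensive mean, and hypertensive replicate 3 was the lowest of the 6 arrays.

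In the small subunit, RPS6, the substrate of the S6 kinases downstream of mTORC1, was at 17819, 16047 and 17681 on the normotensive and 19569, 20670 and 17085 on the hypertensive arrays. The log2 difference was 0.15 (SE 0.13; 95% interval -0.15 to 0.45), and hypertensive replicate 3 lay inside the normotensive range. RPSA, known outside the ribosome as a laminin receptor, was the steadiest gene of the family. Its signals were 18627, 16776 and 17551 against 18697, 18300 and 16348 (log2 0.0095, SE 0.13, 95% interval -0.28 to 0.30). RPS27A, made as a fusion with ubiquitin, and RPS18 each had a log2 difference of 0.15 (SE 0.13 and 0.14). RPS3A, RPS23 and RPS25 were at 0.12, 0.11 and 0.02, and RPS19, which is mutated in Diamond-Blackfan anaemia, at 0.08 (SE 0.23). The groups of all these genes overlapped.

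Both groups were fully apart in 5 of the 61 genes, 3 higher (RPL26, RPL36AL and RPS28) and 2 lower (RPS27L and RPL22L1) at hypertensive pressure. Over all genes tested this happened in 9.28% in the higher and 12.6% in the lower direction, and the 5 genes make up 8.20% of the family. The count depended on single arrays: it was 29 without hypertensive replicate 3 (27 of them higher), 14 without hypertensive replicate 2 (10 lower) and 10 without normotensive replicate 3 (7 lower). The same rule then took 32.3%, 56.4% and 31.6% of all genes tested. None of the 5 passed (adjusted p from 0.302 to 0.415, limma). RPS28, a small subunit protein near the mRNA exit, was at 14874, 13249 and 15494 on the normotensive and 18972, 19196 and 15890 on the hypertensive arrays. The gap between the groups is narrow, as hypertensive replicate 3 lies just above normotensive replicate 3. The log2 difference was 0.31 (SE 0.14; 95% interval -0.02 to 0.63). This probe set is marked as one that can detect related transcripts. RPS28 has 2 dimmer probe sets without such a mark, and they differ in sign: one was at -0.18 (SE 0.27) with overlapping groups, and the other, at 52.1, 53.5 and 43.5 against 102, 66.3 and 63.6, was at 0.61 (SE 0.35) with separated groups.

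RPL26, whose protein binds p53 mRNA, was at 70.1, 53.6 and 62.2 against 139, 86.0 and 92.4 (log2 0.75, SE 0.34; 95% interval -0.02 to 1.52). Its 1 probe set is dim and close to the filter. RPL30 and RPS15A had only probe sets below the filter, with mean signals of 29.3 and 23.3 on the normotensive and 73.8 and 16.7 on the hypertensive arrays, and were not tested.

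**Figure D3:**
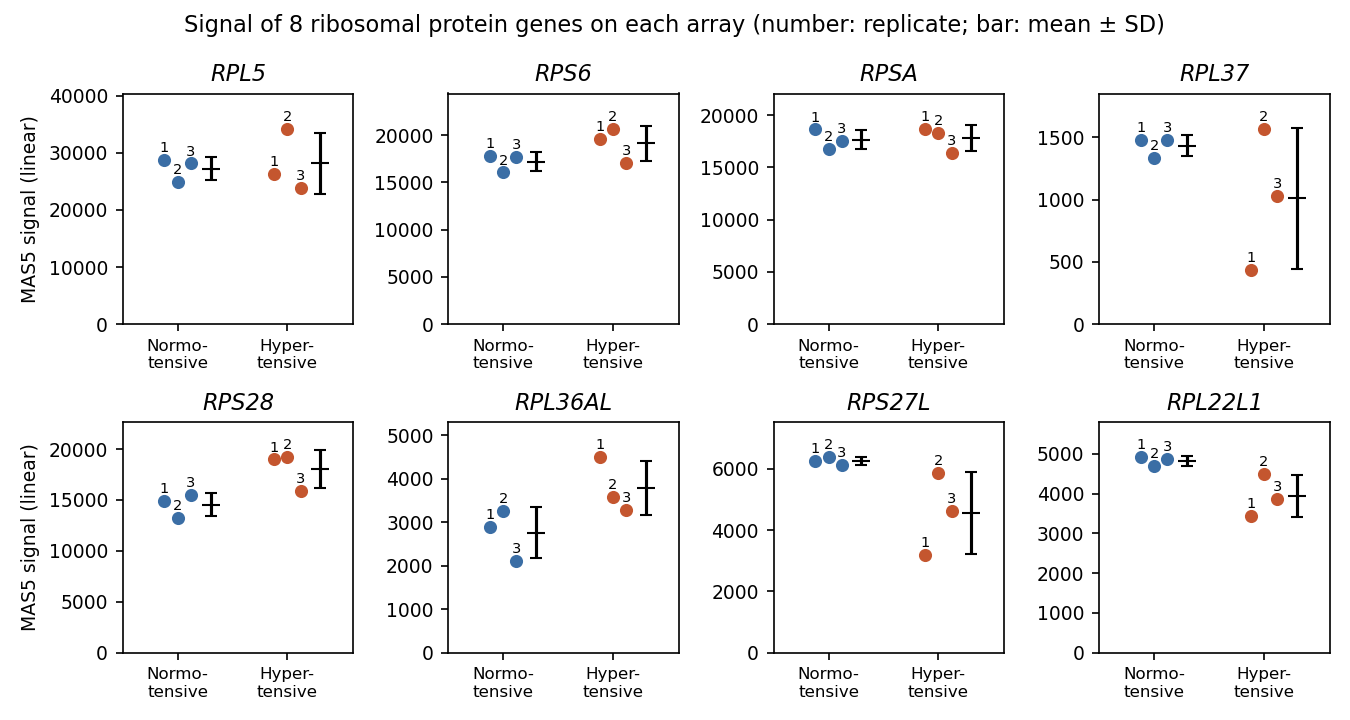
MAS5 signal (linear, y axis from 0) of 8 ribosomal protein genes on the normotensive (blue) and hypertensive (orange) arrays, with replicate numbers at the points and the mean ± SD (n = 3) beside them. RPL5, RPS6 and RPSA overlap between groups, RPL37 was low on hypertensive replicate 1, and RPS28, RPL36AL, RPS27L and RPL22L1 do not overlap.

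The paralogue forms are genes copied from a ribosomal protein gene and expressed beside it. The array holds 5 of them (RPL22L1, RPL26L1, RPL36AL, RPL7L1 and RPS27L). Of these, 1 was wholly higher and 2 wholly lower at hypertensive pressure, where 9.28% and 12.6% of all genes tested were. With 5 genes such a count says little about paralogue forms as a class. RPS27L, a close relative of RPS27 that p53 induces, was at 6263, 6374 and 6129 on the normotensive and 3201, 5854 and 4625 on the hypertensive arrays, the farthest from the normotensive range being replicate 1. The log2 difference was -0.50 (SE 0.24; 95% interval -1.05 to 0.06; adjusted p = 0.322, limma). It was -0.70 without hypertensive replicate 2, where it passed (adjusted p = 0.0399), and -0.27 without hypertensive replicate 1. RPS27 itself, given for comparison, was at 12534, 11099 and 12514 against 11853, 14227 and 9784, with a log2 difference of -0.03 (SE 0.17). A dimmer probe set of RPS27, at 1594, 1410 and 1565 against 733, 1807 and 481, had -0.82 (SE 0.46), the same sign as RPS27L, with overlapping groups. The probe set of RPS27L is marked as one that can detect related transcripts, so the separation of RPS27L from RPS27 is uncertain.

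RPL22L1, the paralogue that RPL22 represses, was at 4916, 4687 and 4879 against 3450, 4499 and 3877 (log2 -0.30, SE 0.19; 95% interval -0.74 to 0.14). All 3 hypertensive arrays were lower, by little on replicate 2. RPL36AL, a near copy of RPL36A, was at 2902, 3257 and 2109 against 4495, 3580 and 3286 (log2 0.47, SE 0.25; 95% interval -0.10 to 1.04), and was at 0.29 without normotensive replicate 3 and 0.34 without hypertensive replicate 1. The remaining forms overlapped: RPL7L1 and RPL26L1 had log2 differences of 0.15 (SE 0.22) and 0.17 (SE 0.25). With the paralogue forms left out, 2 of 56 genes had separated groups, both higher. Of all genes tested 9.28% were wholly higher and 12.6% wholly lower. No test of paralogue forms against the other genes was made.

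The widest range of the family belonged to RPL37, whose protein, like RPL5 and RPL11, can bind MDM2. It was at 1480, 1336 and 1481 on the normotensive arrays and at 437, 1570 and 1027 on hypertensive replicates 1, 2 and 3. Hypertensive replicate 1 thus accounts for most of the log2 difference of -0.69 (SE 0.44), which was -0.17 without it and -1.09 without hypertensive replicate 2. The 32 genes above the filter that the naming rule did not take had log2 differences from -0.39 to 0.17, with 17 higher and 15 lower, and the groups of each overlapped. RPL27A was the lowest of these; it and the other genes from here to the further probe sets that the rule did not take were named after their values were seen. RPL27A was at 8603, 9351 and 6569 against 5324, 8997 and 4913 (log2 -0.39, SE 0.27).

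Without hypertensive replicate 2, RPS27L and RPL27A passed the threshold, both lower, which is 2 of 61 genes (3.28%) where 26.0% of all genes tested passed. RPL27A was then at a log2 difference of -0.66 (SE 0.19; adjusted p = 0.0436, limma). Array weights counted hypertensive replicate 2 least (0.195) and normotensive replicate 1 most (6.96). Hypertensive replicates 1 and 3 had weights of 0.289 and 2.38, and normotensive replicates 2 and 3 had 0.931 and 1.15. This fit therefore rests mainly on normotensive replicate 1 and hypertensive replicate 3. Those arrays had the highest normotensive (0.10) and the lowest hypertensive (-0.26) median deviation of the 61 genes. With these weights 12 genes passed, all lower, beside 40.7% of all genes tested. Their log2 differences ran from RPL27A at -0.70 and RPL35 at -0.66 to RPS16 at -0.39. RPL3, which lies at the peptidyl transferase centre, was at -0.56 (SE 0.13) with these weights. In the main fit RPL3 was at -0.28 (SE 0.19), with overlapping groups. Its signals were 13378, 12233 and 11086 on the normotensive and 9291, 12735 and 8482 on the hypertensive arrays.

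Once each array was centred on the median of the 61 genes, a step chosen after the shared shift was seen, 3 genes lay wholly higher and 6 wholly lower at hypertensive pressure. The lower ones were RPL37 (-0.73), RPS27L (-0.54), RPL3 (-0.33), RPL10A (-0.29), RPL34 (-0.29) and RPS2 (-0.13), and the higher ones RPL26 (0.71), RPS12 (0.13) and RPLP0 (0.09). With the same centring 5.39% of all genes tested lay wholly higher and 17.0% wholly lower. The values are log2 differences relative to the family on the same array and carry no test. RPL36AL, RPL22L1 and RPS28 overlapped on this scale.

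Further probe sets of the same genes often read differently. Above the filter, 21 genes had 25 further probe sets, of which 13 had the same sign as the one used and 12 the opposite sign, and none passed (lowest adjusted p = 0.284, limma). The farthest apart were RPL23, with 0.09 on the probe set used and 1.65 (SE 0.75) on a dimmer one, and RPS27A, with 0.15 and -1.39 (SE 0.57). That RPL23 probe set was at 521, 349 and 564 on the normotensive and 2415, 375 and 3476 on the hypertensive arrays. That of RPS27A was at 1831, 1536 and 2283 against 322, 1823 and 611. In both, hypertensive replicates 1 and 3 departed from the normotensive arrays while replicate 2 did not. The transcripts that these dimmer probe sets detect were not identified here, and near-identical gene copies make any single ribosomal protein probe set uncertain.

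**Figure D4:**
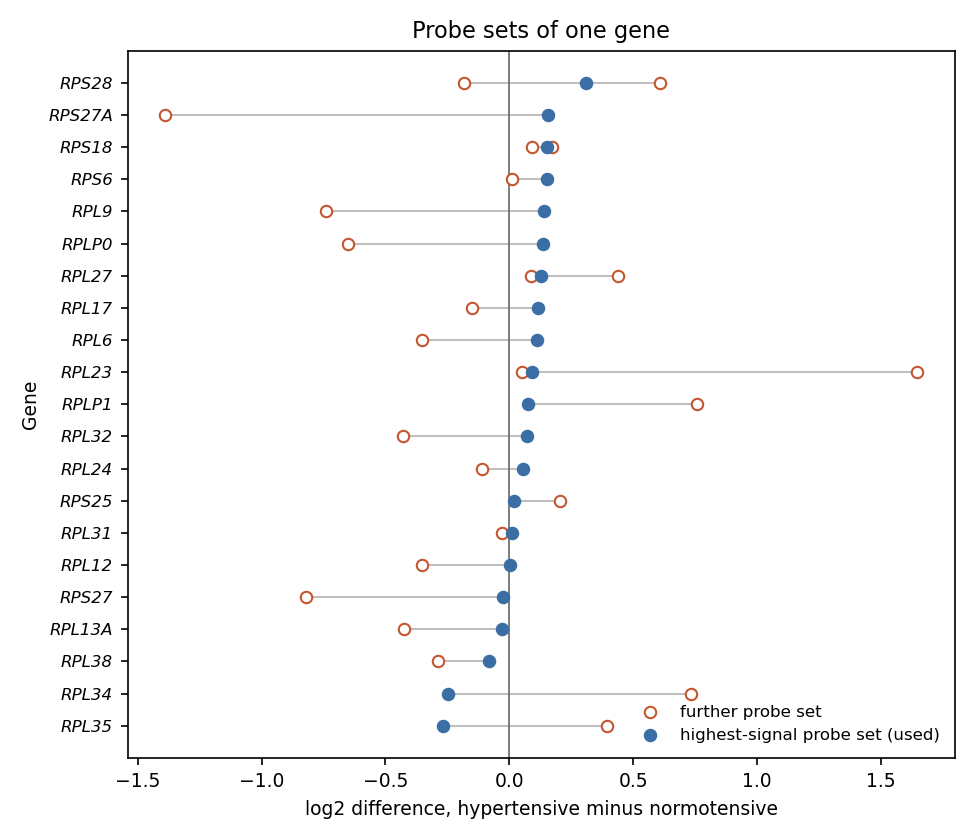
Log2 difference (hypertensive minus normotensive, x axis) of the probe set used for each gene (blue) and of the gene's further probe sets above the filter (open orange), for the 21 genes (y axis) that had one. The used probe sets lie close to 0, while the further ones reach from -1.39 (RPS27A) to 1.65 (RPL23).

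The other genes of the pathway are described list by list. As background for their direction counts, 45.0% of all genes tested had the higher mean, with a median log2 difference of -0.07. On all 6 arrays none passed in any list below by limma, while an unadjusted p of 0.05 was reached by 10 of 37 ribosome assembly genes, 7 of 58 mitochondrial ribosomal protein genes, 5 of 36 initiation factors and 1 of 7 mTORC1 genes. Of all genes tested 17.0% reached it, so the share was above that background in the assembly list alone. The proteins RACK1, a signalling scaffold on the small subunit, and FAU, the precursor of another small subunit protein, had log2 differences of 0.10 (SE 0.15) and 0.08 (SE 0.24). Of 14 elongation factors and other mRNAs of the TOP class, 10 were higher and 4 lower, with a median of 0.02. EIF4B, which helps unwind mRNA and also counts among the initiation factors, had -0.41 (SE 0.30) and EEF1A1, which delivers aminoacyl-tRNA, 0.35 (SE 0.29). The EEF1A1 probe set was dim for this list, at 557, 711 and 539 against 737, 621 and 959, where the list's median signal was 10801. Without hypertensive replicate 1 EIF4B was at -0.10, and without hypertensive replicate 3 EEF1A1 was at 0.18. FAU turned to -0.06 without hypertensive replicate 1 and to -0.04 without replicate 2. On the 6 arrays the list median was highest on hypertensive replicate 2 (0.23) and lowest on hypertensive replicate 3 (-0.14), the same 2 arrays as at the ends for the ribosomal proteins, with the arrays between them in another order.

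Ribosome assembly genes stood higher on 2 of the 3 hypertensive arrays. Of 37 measured, 31 had the higher mean at hypertensive pressure (83.8%, against 45.0% of all genes tested) and 6 the lower. The median log2 difference was 0.61. Hypertensive replicates 1 and 3 had list medians of 0.99 and 0.67, whereas replicate 2, with 0.09, was level with the highest normotensive array (0.09). WDR12, of the large subunit assembly complex with PES1 and BOP1, was at 383, 386 and 352 on the normotensive and 1106, 498 and 846 on the hypertensive arrays (log2 1.06, SE 0.34; adjusted p = 0.261, limma). RIOK1, a kinase of small subunit maturation, was at 165, 177 and 163 against 629, 219 and 449 (log2 1.23, SE 0.40). MYC was at 289, 216 and 322 against 603, 272 and 632 (log2 0.79, SE 0.39), so hypertensive replicate 2 lay inside the normotensive range. Without that array 19 of the 37 assembly genes passed, all higher (51.4%, where 26.0% of all genes tested passed), beside the 2 of 61 ribosomal protein genes. The difference between these lists was not tested.

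Mitochondrial ribosomal protein genes, which serve a separate ribosome inside mitochondria, were lower on balance, with 40 of 58 lower and a median of -0.21. The share with the higher mean was 31.0%, against 45.0% of all genes tested. Hypertensive replicates 1 and 3 had medians of -0.38 and -0.36 and replicate 2 one of -0.03, against -0.12 to 0.10 on the normotensive arrays. MRPL52 was at 1319, 1056 and 1415 against 604, 862 and 817 (log2 -0.74, SE 0.27), and MRPL2 had -0.89 (SE 0.33). Without hypertensive replicate 2, 15 of the 58 passed (25.9%), 12 lower and 3 higher, a share close to the 26.0% of all genes tested.

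**Figure D5:**
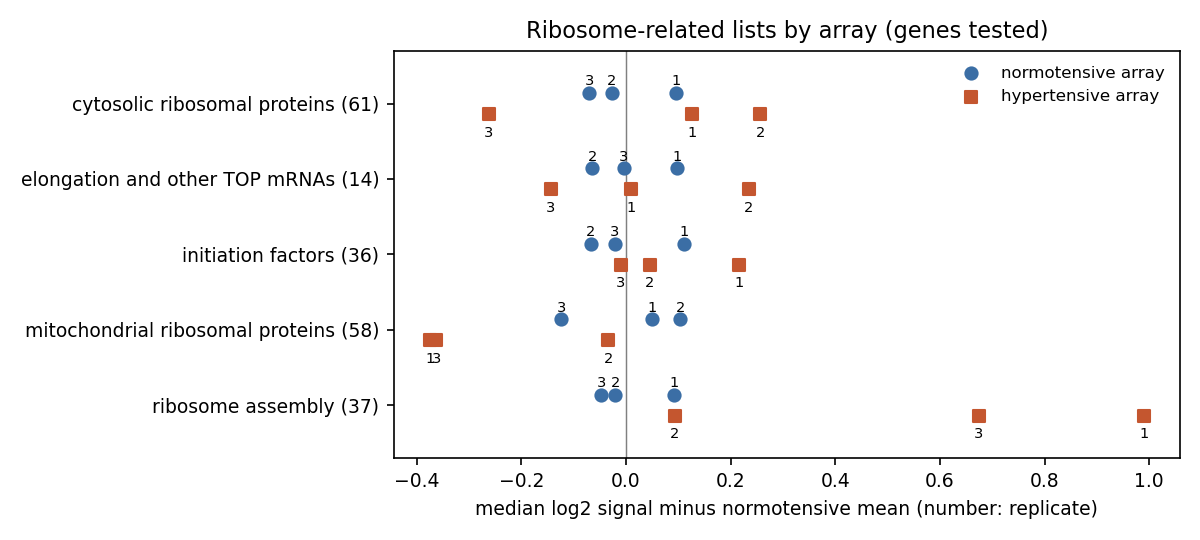
Median log2 signal minus the normotensive mean (x axis) of the tested genes of 5 lists (y axis, number of genes in parentheses) on each normotensive (blue circles) and hypertensive (orange squares) array, with replicate numbers. Cytosolic ribosomal proteins lie between -0.26 and 0.26 on all arrays, while ribosome assembly genes reach 0.67 and 0.99 on hypertensive replicates 3 and 1.

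Initiation factors and their regulators split evenly, with 20 of 36 higher and a median of 0.08. EIF1AY, counted as higher, was at 2069, 0.927 and 2614 against 669, 1786 and 45.5 (log2 1.15, SE 2.86). Its range over the 6 arrays, 11.5 on the log2 scale, was the widest of all genes tested, with high and low arrays in both groups. Whether this reflects different animals was not tested. EIF2AK2, a double-stranded RNA kinase that interferon induces and that halts initiation, was at 950, 1178 and 989 against 5128, 1383 and 2948 (log2 1.41, SE 0.44; adjusted p = 0.257, limma). EIF2B1, a subunit of the exchange factor that recharges eIF2, was at 930, 1070 and 949 against 203, 760 and 391 (log2 -1.32, SE 0.46; -0.85 without hypertensive replicate 1). Both had groups that did not overlap. Without hypertensive replicate 2, 5 initiation factors passed higher and 5 lower (27.8%), and 2 of 7 mTORC1 genes passed, both higher (28.6%), close to the 26.0% of all genes tested. Of 7 measured genes of mTORC1 and TOP mRNA control, 3 were higher and 4 lower, with LARP4, which binds poly(A), at 1.04 (SE 0.37) and RHEB, the GTPase that activates mTORC1, at 0.73 (SE 0.36). Without hypertensive replicate 1 they were at 0.69 and 0.38. Of 5 p53 target and ribosomal stress genes 1 was higher. GADD45A, a p53-induced stress gene, had a log2 difference of -0.83 (SE 0.76), which turned to 0.20 without hypertensive replicate 1, the one array with a low signal (227). ZMAT3 was at 0.25 (SE 0.28), and at 0.10 and 0.48 without normotensive replicates 1 and 2.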

How the data were processed

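Expression was measured on 6 arrays, 3 per pressure, in pig aortic valve leaflets. The deposited table holds linear signal intensities that the authors made with GCOS and MAS5, per the submitters' processing notes; no version is named in the sources used. A 2% trimmed mean lay between 500.11 and 500.131 on all arrays, so arrays had been scaled to one level, which hides any change of total RNA. The number of arrays limits the precision.

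Control probe sets (124) were set aside, signals were log2-transformed without a pseudocount, and probe sets at or above the 40th percentile of mean log2 signal were kept (14399). Symbols came from the platform annotation. Groups were compared over all kept probe sets with limma 3.58.1 in R 4.3.3 (lmFit, eBayes with intensity trend, two-sided, Benjamini-Hochberg threshold 0.05), without the replicate number as a block; the code was tested on simulated data. Genes named were those with separated groups (up to 6 each way), the 4 highest-signal genes of each subunit, paralogue forms, genes below the filter, genes of known special role, the 3 widest and 3 narrowest ranges, and in related lists the 2 of smallest p. Members and lists were chosen with earlier results of these data known. Alternatives covered the replicate block, scaling, filter, pseudocount, variance model, array weights, left-out arrays, probe set choice and paralogue forms.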

Additional observations from a re-analysis of the deposited data

Results flagged for a closer look

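A control probe set for 28S ribosomal RNA, which entered no comparison above, was higher on all 3 hypertensive arrays than on any normotensive array. It was at 988, 868 and 978 on the normotensive and 2859, 1373 and 2243 on the hypertensive arrays, a ratio of mean signals of 2.28, which was 1.91 without hypertensive replicate 1. The further 28S probe set was at a ratio of 1.28 with overlapping groups, the 18S probe sets were at 1.04 and 0.607, and that of 5S at 1.03.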

How the results depend on the processing

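The count of ribosomal protein genes past the threshold, 0, became 12 with array weights and 2 without hypertensive replicate 2 (0 to 2 over all left-out arrays), and stayed 0 under the other alternatives that gave a test. Over all probe sets the count was 0, became 5639 with array weights, and ran from 0 to 3505 when 1 array was left out and from 0 to 1965 when both arrays of a replicate number were. The subunit medians with array weights were -0.25 for both the large and the small subunit; elsewhere they ran from -0.09 to 0.19 and from -0.11 to 0.19. The large minus small value ran from -0.062 to 0.0202 over left-out arrays. Genes with higher mean signal numbered 12 with quantile normalization, 47 with the median shift and 4 with array weights, and 22 to 51 over left-out arrays. Genes with separated groups numbered 9 with quantile normalization, 9 after centring on the family (an alternative chosen after the data were seen), 3 on probe sets without a suffix mark and 2 with paralogue forms left out, and 5 to 34 over left-out arrays. Of all genes tested 9.28% were wholly higher and 12.6% wholly lower in the main setting, and 5.39% and 17.0% after centring. No such share was computed for quantile normalization, for probe sets without a suffix mark or for left-out replicate numbers. Those counts therefore have no background here. Groups of fewer arrays also separate more easily, and the 34 came without replicate 3 of either group. RPS28 turned to -0.18 on the brighter of its 2 probe sets without a suffix mark and was at 0.61 on the dimmer one. The cause of these changes was not tested. With the replicate number as a block the subunit medians were 0.06 and 0.03, the counts stayed at 0 and the lowest adjusted p of a ribosomal protein gene was 0.277. Same-numbered arrays correlated in their deviations at 0.0593, 0.0720 and 0.226, every array best with its own number. The labels state no pairing and the main fit used none, so whether these arrays are pairs is not settled here.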
